A study of Rattus norvegicus with 5 samples.

Results

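The genes described here bring glucose into the liver cell and start its breakdown: Slc2a1 (GLUT1) and Slc2a2 (GLUT2), which carry glucose across the plasma membrane, Hk2 (hexokinase 2), Pfkl (liver phosphofructokinase), the bifunctional enzymes Pfkfb1 and Pfkfb3, Aldoa (aldolase A), Gapdh (glyceraldehyde-3-phosphate dehydrogenase) and Pklr (liver and red cell pyruvate kinase). They were chosen by name, as all non-control spots of the array that carry 1 of these 9 gene names. This gave 11 probes on 29 spots per array, out of 41012 non-control probes under 35658 different gene names. Of the 11 probes, 9 were well above background on all 5 arrays, and they stand for 8 of the 9 genes. The probe of Hk2 and 1 of the 2 probes of Slc2a2 were well above background on no array.

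Total RNA came from Fao cells, an established rat liver tumour line, given 10 nM insulin for 15, 30, 45 or 60 min or harvested at 0 min. In all 5 groups a starvation of 16 h with 10 nM dexamethasone, a synthetic glucocorticoid, followed 2 days of culture in RPMI medium with 10% serum, so the 0 min cells had the glucocorticoid too. Each group is 1 sample on 1 Agilent array with 1 colour, with no label naming separate cultures. No value at a single time therefore has a replicate or a p-value, and no time-matched cells without insulin were analysed here. Less RNA per cell and fewer cells that express a gene cannot be told apart in such bulk RNA.

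Of the non-control spots, 50.9% to 56.5% were well above background, the highest share at 60 min. The 60 min array was on a slide and in a scan of its own, and the other 4 arrays shared both. Slide and time cannot be told apart at 60 min. All 9 hepatocyte markers examined, albumin among them, were well above background on every array. Of the markers of macrophages, endothelium, fibroblasts and bile duct cells, 7 of 12 on the array were too, and the endothelial genes Cdh5 and Kdr had log2 changes of −0.59 and −0.69 at 60 min against 0 min. Both were dim, and Kdr was well above background on 4 arrays only. Of all probes, 3.72% were at least 1.5-fold lower at 60 min. Among the probes nearest in level to the dim member Slc2a2, 13.0% differed 1.5-fold in either direction. The part of such markers in the results below was not tested.

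Glucose enters hepatocytes through GLUT2, a carrier of low affinity, while GLUT1 is the carrier of most dividing cells. Hexokinases trap the sugar as glucose-6-phosphate, and phosphofructokinase commits it to glycolysis. Phosphofructokinase is driven by fructose-2,6-bisphosphate, which the PFKFB enzymes make and degrade. Pfkfb1 is the liver form, whose balance of kinase and phosphatase activity is set by hormones, and Pfkfb3 is an inducible form with high kinase activity. Pyruvate kinase closes the pathway, and transcription of its liver form is known to respond to glucose and insulin.

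The sequences before the starts of Pfkfb3 and Pklr are shown because Pfkfb3 is the member with the widest range over the arrays and because Pklr carries the textbook glucose-response site of the pathway. They are the 250 bases before the RefSeq start on the GRCr8 assembly, both on the plus strand, at chr17:71944683-71944932 and chr2:176841014-176841263. Capitals mark the E-box CACGTG in Pfkfb3 and, in Pklr, a carbohydrate response element, a pair of E-box-like sites with a short spacer. Both strands were searched, and both motifs read alike on either strand.
Pfkfb3: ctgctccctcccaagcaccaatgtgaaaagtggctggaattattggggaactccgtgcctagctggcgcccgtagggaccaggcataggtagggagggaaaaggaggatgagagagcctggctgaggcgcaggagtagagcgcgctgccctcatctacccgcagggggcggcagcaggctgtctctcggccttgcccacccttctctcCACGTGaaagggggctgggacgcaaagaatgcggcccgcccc
Pklr: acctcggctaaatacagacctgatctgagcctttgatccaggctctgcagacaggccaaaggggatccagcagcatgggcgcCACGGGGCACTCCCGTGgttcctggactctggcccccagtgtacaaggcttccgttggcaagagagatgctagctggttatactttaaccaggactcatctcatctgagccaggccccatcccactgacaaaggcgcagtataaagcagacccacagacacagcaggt
The E-box starts 42 bases before the start of Pfkfb3, and the element of Pklr starts 168 bases before its start. An E-box lay in 5.59% of 33469 such promoter windows of the rat and the Pklr element in 0.0209% of them (7 windows). The E-box of Pfkfb3 holds the core of the hypoxia response element, ACGTG, on both strands. That core was found in 16.6% of the windows, among them 1 each of Slc2a1, Aldoa and Gapdh. A match of letters is a description and not a binding site.

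The main comparison asked how the transcripts of glucose entry and glycolysis differed from 0 min after each time of insulin. Pfkfb3 was the only 1 of the 8 measured genes to pass a 1.5-fold difference from 0 min, higher at 15 min and lower at 60 min. The other 7 stayed within a 1.24-fold difference of 0 min at every time by their brightest probes. The level of a probe is the log2 ratio of its processed signal to the 75th percentile of its array, and a change is the level at a time minus the level at 0 min. The error given with a change is the scanner software's error estimate for both spots, which covers measurement on the array and not the spread between cultures. For the probes with 10 spots, of Slc2a1 and Gapdh, the estimates were combined over spots as if independent. Their smaller errors are therefore not comparable with those of genes read from 1 spot. The median spread between repeated spots within an array, combined over both arrays, gave a technical standard deviation of 0.18 to 0.20 log2 units for a change. Taken spot by spot at the same position, changes had standard deviations of 0.05 to 0.10 for Slc2a1 and 0.07 to 0.15 for Gapdh.

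Pfkfb3 had levels of −3.25, −2.37, −3.29, −3.49 and −4.28 at 0, 15, 30, 45 and 60 min. The 15 min array was the highest, the arrays of 0, 30 and 45 min lay close together, and the 60 min array was the lowest. Its change was 0.87 ± 0.23 at 15 min, a 1.83-fold increase, and −1.04 ± 0.28 at 60 min, a 2.05-fold decrease. At 30 min the change was −0.05 ± 0.24 and at 45 min −0.25 ± 0.26, both within their errors. Among all probes measured on both arrays, 1.07% were at least 1.5-fold higher at 15 min and 3.72% at least 1.5-fold lower at 60 min.

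Between neighbouring times, Pfkfb3 was 1.89-fold lower at 30 min than at 15 min, and 0.785% of all probes were at least 1.5-fold lower in that step. It was 1.73-fold lower at 60 min than at 45 min, a step in which 4.27% of all probes were at least 1.5-fold lower. Before scaling its signal was 22.7 at 45 min and 24.7 at 60 min, so the decrease in this step is seen only in the scaled values. The 75th percentiles were 255.2 and 480.3, so the unscaled signals of these arrays are not on a common scale. Scaled instead to 8 labelled control transcripts added to the RNA, its changes against 0 min were −0.46 at 45 min and −1.24 at 60 min. Slide and time cannot be told apart in this step. Against the 15 min array Pfkfb3 was also more than 1.5-fold lower at 45 and 60 min, as were 1.12% and 5.96% of all probes. No other member probe passed in these comparisons, and none passed between 30 and 45 min. The shares of all probes at least 1.5-fold higher were 0.795% at 30 min, 1.39% at 45 min and 3.44% at 60 min against 15 min, and 2.3% at 60 min against 45 min. At 45 min against 30 min, 0.77% were higher and 0.581% lower. The difference between 15 and 30 min lies within 1 slide, and that between 45 and 60 min crosses slides. The decreases of Pfkfb3 from 15 min to 30, 45 and 60 min all use the same dim spot at 15 min, its highest level. The increase at 15 min uses that spot too, so these differences are not separate observations.

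Pfkfb3 was read from 1 dim spot per array, at chromosome 17, 78258273 to 78258332 on the rn4 assembly of the array design. Its mean spot signal was 98.9 over a local background of 45.5 at 15 min, against 76.6 over 44.0 at 0 min. At 60 min it was 71.8 over 46.0. After background subtraction and before scaling the signals were 51.3 ± 5.4 at 15 min and 24.7 ± 3.9 at 60 min, against 31.6 ± 3.6 at 0 min. The 75th percentiles that scale them were 266.0 at 15 min and 480.3 at 60 min, against 299.9 at 0 min. The 60 min decrease is therefore larger in the scaled than in the unscaled values, which are not on a common scale. With quantile scaling the 60 min change was −1.01, and with the control transcripts it was −1.24. Dim probes scatter more. Among the probes nearest to it in level, 5.39% differed 1.5-fold in either direction at 15 min and 13.4% at 60 min. Other probes within 5 rows and columns of its spot had a median change of −0.03 at 15 min and 0.01 at 60 min.

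Of the 7 alternatives in background, scaling or centring that could move the changes of Pfkfb3 against 0 min, 6 kept the 15 min change past 1.5-fold and all 7 the 60 min change. The 15 min values ran from 0.42 to 1.24 and the 60 min values from −1.24 to −0.67. With a normexp background refitted without 5 spots far dimmer than their surroundings, which was added once the data had been seen, the 15 min change was 0.42, under 1.5-fold, and the 60 min change −0.67. With normexp on all spots and the same offset of 50, the 15 min change was 1.24. That setting put 46.1% of all probes past 1.5-fold at 15 min, so passing there says little about Pfkfb3. Apart from normexp, the alternatives rescaled or recentred the same processed signal and are not separate observations of it.

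**Figure D1:**
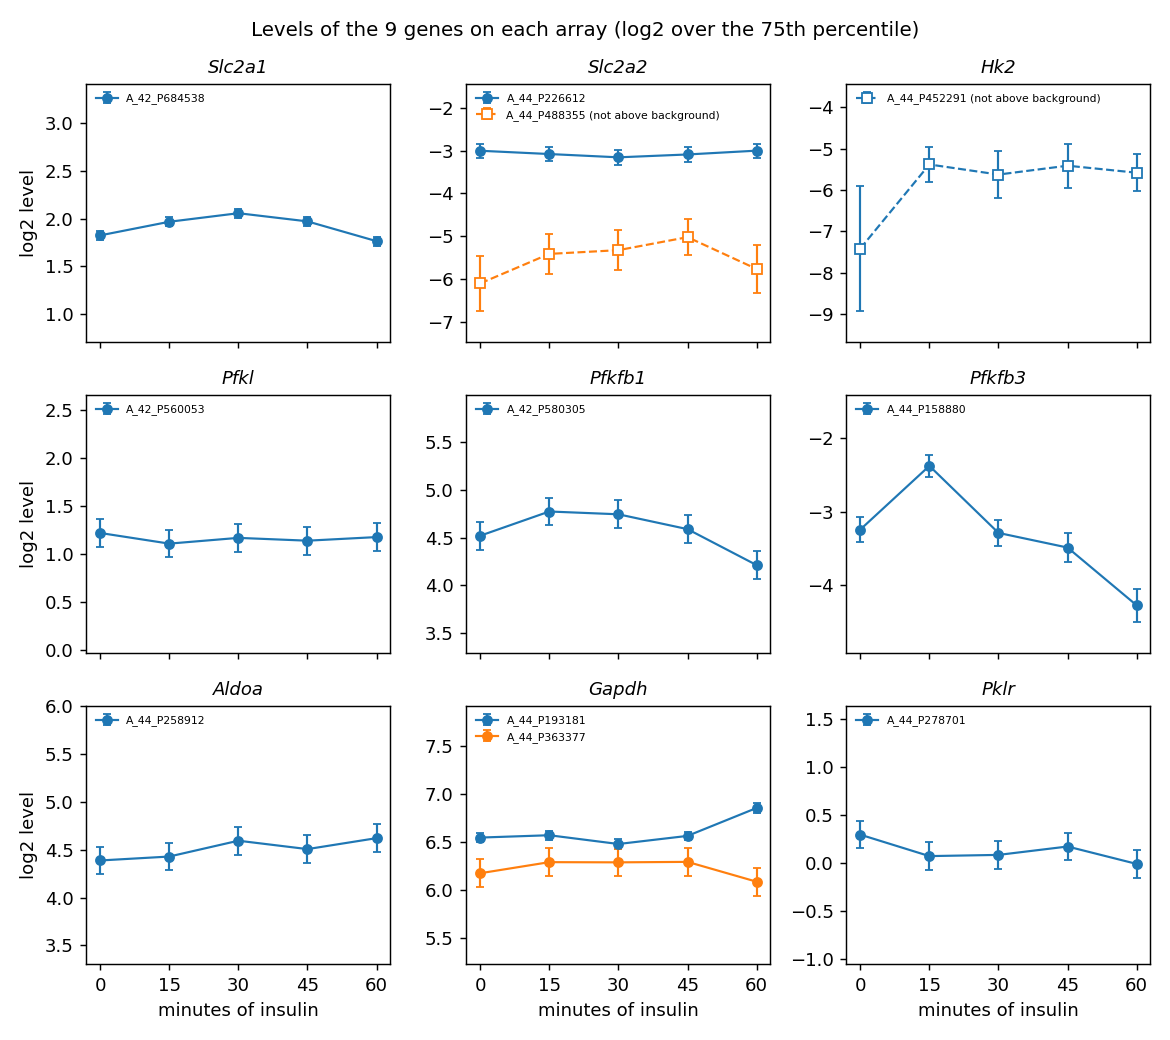
Level of every probe of the 9 genes (vertical axis, log2 of signal relative to the array's 75th percentile, own scale in each panel) against minutes of insulin, 1 array per time, with the scanner software's error estimate as bars, filled circles for probes well above background on all 5 arrays and open squares for those so on none. For probes with 10 spots the bars combine the estimates of the spots. Pfkfb3 is highest at 15 min, at −2.37, and lowest at 60 min, at −4.28.

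The trend fit asked whether any member changed steadily over the hour. With limma, a slope on time was fitted to 19747 probes, those well above background on every array. Pfkfb3 had a slope of −1.28 ± 0.44 log2 units per hour (SE), with a Benjamini-Hochberg adjusted p of 0.414 in limma over all probes. None of the 9 member probes passed a 5% false discovery rate in limma, and 1 of them, Pfkfb3, had an unadjusted p under 0.05. Over all probes 1 rose and 1 fell at that rate, each 0.00506% of those fitted. An unadjusted limma p under 0.05 was found for 1155 rising and 821 falling probes of the 19747. So 1 of the 9 member probes is near the share of all probes. Without the 0 min array the slope of Pfkfb3 was −2.37 ± 0.28 with an adjusted p of 0.0373 in limma, and without the 60 min array it was −0.66 ± 0.59 with an adjusted p of 0.766. Over the 7 alternatives to this fit, its limma adjusted p ranged from 0.0373 to 0.819. The lowest came from the fit without the 0 min array, which begins at the 15 min spot, the highest of Pfkfb3. That fit is therefore not an observation separate from the high 15 min value.

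Of the glucose carriers, Slc2a1 was measured most precisely, with 10 spots of 1 probe on each array (chromosome 5, 139718779 to 139718838, rn4). Its levels were 1.82, 1.97, 2.06, 1.97 and 1.76 at 0, 15, 30, 45 and 60 min. The 30 min array was the highest, and the arrays of 0 and 60 min were the lowest. Its changes were 0.14 ± 0.06 at 15 min, 0.23 ± 0.06 at 30 min, 0.15 ± 0.06 at 45 min and −0.06 ± 0.07 at 60 min. All 10 spots were higher at 15, at 30 and at 45 min than at 0 min, and at 60 min 3 of 9 usable spots were higher. These spots share their array and its scale, so they are not replicates of the condition. When the arrays were scaled to 8 labelled control transcripts added to the RNA, the changes of Slc2a1 were −0.04, 0.08, −0.06 and −0.26, so its direction flipped at 15 and 45 min. That scaling subtracts 1 constant per array (0.18, 0.15, 0.21 and 0.20 at 15, 30, 45 and 60 min) and so moves all genes alike. It put the median of all probes at −0.15, −0.13, −0.19 and −0.18. Relative to that median, which the choice between these scalings cannot alter, Slc2a1 stood at 0.11, 0.21, 0.13 and −0.08.

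Slc2a2 was dim. Its probe at chromosome 2, 116065264 to 116065323 (rn4) had levels of −3.00, −3.08, −3.16, −3.09 and −3.00 at 0, 15, 30, 45 and 60 min. The 5 arrays differed by no more than 0.16 log2 units, less than the error of 0.23 to 0.24 of each change. With the refitted normexp its changes were 0.08, 0.11, 0.10 and −0.32 at 15, 30, 45 and 60 min, with the sign turned at each time, and the 15 min change was 1.08 when normexp took all spots. Its other probe, at 116046109 to 116046168, had signals of 4.38 to 8.85 and was not well above background. Hk2, the insulin-responsive hexokinase of muscle and fat, had signals of 1.75, 6.37, 5.13, 5.99 and 10.0 in order of time, each below the software's detection flag, and no change is given for it. Its probe spans 1508 bases of chromosome 4, 116926495 to 116928002 (rn4).

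**Figure D2:**
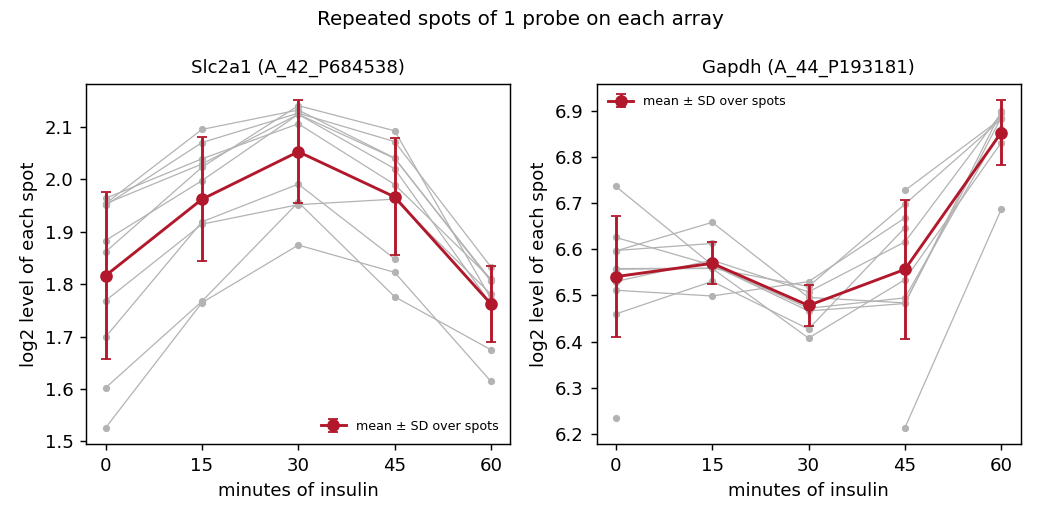
Level of each spot (vertical axis, log2 over the 75th percentile of the array) of the probes of Slc2a1 (left) and Gapdh (right) that are spotted 10 times on each array, against minutes of insulin, with grey lines joining a spot position over the 5 arrays (outlier spots left out) and red points with bars for the mean ± SD over spots. The mean of Slc2a1 peaks at 30 min, at 2.05, and that of Gapdh at 60 min, at 6.85.

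At the phosphofructokinase step, Pfkl had levels of 1.22, 1.11, 1.17, 1.14 and 1.18 at 0, 15, 30, 45 and 60 min. Its probe lies at chromosome 20, 11032149 to 11032208 (rn4). All 4 times after insulin lay slightly below 0 min, by less than the error of 0.20. Pfkfb1 had levels of 4.52, 4.77, 4.74, 4.59 and 4.21, read at chromosome X, 39885965 to 39886024. It was highest at 15 and 30 min and lowest at 60 min. Its changes were 0.25, 0.22, 0.07 and −0.31 at 15, 30, 45 and 60 min, each ± 0.20, so those of 15, 30 and 60 min exceeded the error and none passed 1.5-fold. Scaled to the control transcripts, the changes of Pfkfb1 were 0.07, 0.08, −0.14 and −0.51, with the direction flipped at 45 min. Its highest and lowest levels lay 0.56 log2 units apart, under 1.5-fold. Probes of like level to Pfkfb1 had a standard deviation of 0.14 for the change at 15 min and of 0.27 at 60 min. Pfkfb1 at 15 and 30 min differed by less than the error, and their order turned with scaling to the control transcripts. With normexp on all spots its 15 min change was −0.42, on an array where that setting put 46.1% of all probes past 1.5-fold.

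Of the lower enzymes, Aldoa had levels of 4.39, 4.43, 4.59, 4.51 and 4.62 at 0, 15, 30, 45 and 60 min, from a probe at chromosome 1, 185972062 to 185972121 (rn4). Its changes were 0.04, 0.21, 0.12 and 0.23 at 15, 30, 45 and 60 min, of which those at 30 and 60 min were slightly over the error of 0.20. Scaled to the control transcripts, with the same constants as for Slc2a1, they were −0.14, 0.06, −0.09 and 0.03, so the sign of such small changes is set by the scaling at 15 and 45 min. Pklr had levels of 0.30, 0.07, 0.08, 0.17 and −0.01, from a probe at chromosome 2, 181221375 to 181221434. All 4 times after insulin lay below 0 min, by −0.22, −0.21, −0.12 and −0.31 ± 0.20. As all 4 changes use the same 0 min spot, they are not separate observations: against the 15 min array the changes of Pklr were 0.01, 0.10 and −0.08 at 30, 45 and 60 min.

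Gapdh, often used to normalise expression, had levels of 6.55, 6.57, 6.48, 6.56 and 6.86 by its probe with 10 spots (chromosome 4, 161282440 to 161282609, rn4). Its change at 60 min was 0.31 ± 0.07, and all 8 spots usable on both arrays were higher at 60 min than at 0 min. Scaled to the control transcripts, the changes of this probe were −0.15, −0.21, −0.19 and 0.11 at 15, 30, 45 and 60 min. The other probe of Gapdh, at 161282655 to 161282714, had levels of 6.17, 6.29, 6.29, 6.29 and 6.09 and changes of 0.12, 0.11, 0.12 and −0.09, each ± 0.20. The brighter probe had changes of 0.02, −0.07, 0.02 and 0.31, so the probes had opposite signs at 30 and at 60 min. The rat genome holds many Gapdh pseudogenes, and whether they add to either probe was not tested.

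**Figure D3:**
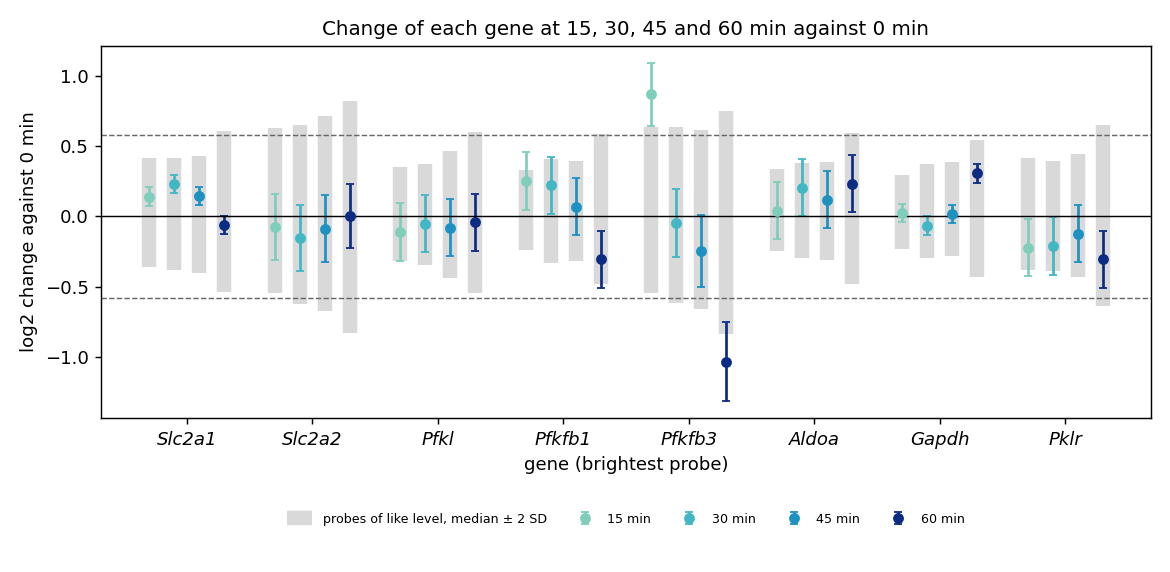
Log2 change against 0 min (vertical axis) at 15, 30, 45 and 60 min for the brightest probe of each of the 8 measured genes, with the scanner software's error estimate as bars, the median ± 2 SD of the probes nearest in level as grey bands and 1.5-fold as dashed lines. For probes with 10 spots the error bars combine the estimates of the spots. Pfkfb3 passes the dashed lines at 15 min (0.87) and 60 min (−1.04), and the other genes stay between them.

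Over the 8 measured genes, the median change was 0.03 at 15 min, −0.05 at 30 min, −0.03 at 45 min and −0.05 at 60 min. Over all probes measured on both arrays the medians were 0.03, 0.02, 0.02 and 0.02. At 15 min 1 of the 9 member probes was at least 1.5-fold higher and none lower, against 1.07% and 0.912% of all probes. At 30 min and at 45 min none passed in either direction, against 1.13% higher and 0.918% lower of all probes at 30 min, and 1.68% and 1.07% at 45 min. At 60 min 1 was lower and none higher, against 3.72% and 3.36%. Of the 9 probes, 1 spanned at least 1 log2 unit over the 5 arrays, as did 2.55% of all probes well above background throughout.

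Other genes of glucose metabolism were counted by their brightest probe. Of 25 other sugar carriers and glycolysis enzymes, 24 were on the array and 16 were measured. Their median change was 0.09, 0.13, 0.07 and −0.07 at 15, 30, 45 and 60 min, beside 0.03, 0.02, 0.02 and 0.02 over all probes. Scaling to the control transcripts subtracts 0.18, 0.15, 0.21 and 0.20 from every change at these times. Those constants exceed the medians at 15, 30 and 45 min, so the sign of these medians is set by the scaling. Pfkm, the muscle phosphofructokinase, was the only 1 of the 16 past 1.5-fold, with a change of −0.60 at 45 min and of −0.06 at 60 min. The carriers Slc2a3, Slc2a4 and Slc2a10, the kinases Hk3 and Pfkp and the pyruvate kinase Pkm were well above background on no array.

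Among 13 genes for the fate of pyruvate, 13 were measured at 15 and 60 min and 11 at 30 and 45 min. Pdk4, a kinase that inactivates pyruvate dehydrogenase, was 1.64-fold lower at 60 min and no other gene of this list passed 1.5-fold. Pdk4 was well above background on 3 arrays only, with no change given at 30 and 45 min. Its levels of −4.05 at 0 min and −4.77 at 60 min were dimmer than those of Pfkfb3. Among probes nearest to Pfkfb3 in level, 13.4% differed 1.5-fold in either direction at 60 min. Of the 6 genes of glucose output, G6pc1, whose phosphatase undoes the hexokinase step, was the 1 to pass 1.5-fold. Its levels were 5.33, 5.32, 4.78, 4.58 and 3.40 at 0, 15, 30, 45 and 60 min. Against 0 min it was 1.67-fold lower at 45 min, the change at 60 min was −1.93, a 3.80-fold decrease, and its other probe had changes of −0.82 and −2.21 at these times. None of the 7 measured genes of glycogen, 6 of the pentose phosphate pathway and 6 of the glucose-sensing regulators passed 1.5-fold at any time. Of all probes, 1.13% or less at 15 and 30 min, 1.68% higher and 1.07% lower at 45 min, and 3.36% higher and 3.72% lower at 60 min passed, so none among lists of this size is near that background. Mlxipl, the factor known as ChREBP that binds carbohydrate response elements such as that of Pklr, had changes of 0.11, 0.04, 0.16 and 0.22.

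**Figure D4:**
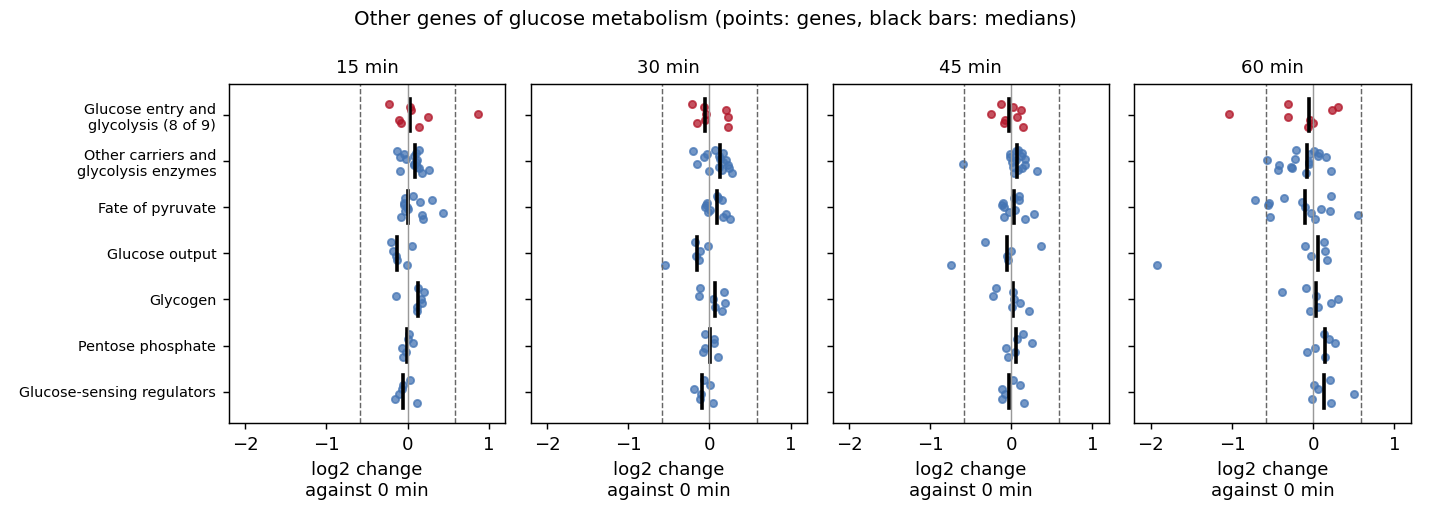
Log2 change against 0 min (horizontal axis) of single genes (points) and list medians (black bars) at 15, 30, 45 and 60 min, by the brightest probe, with the 8 measured genes of glucose entry and glycolysis in the top row, the wider lists in the others and 1.5-fold as dashed lines. The point far left at 60 min is G6pc1, at −1.93, and the 1 right of the line at 15 min is Pfkfb3, at 0.87.

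The genes with the course most like that of Pfkfb3 were sought among 11346 probes with a gene symbol and a signal well above background on every array, by the root mean square difference of the changes at the 4 times. Acrbp, an acrosin-binding protein, was nearest at 0.26 log2 units, with changes of 0.38, −0.07, −0.32 and −1.18. Dusp1, a phosphatase of MAP kinases, followed at 0.29, with 0.84, 0.30, −0.69 and −0.93. Smad6, an inhibitor of BMP signalling, was at 0.30, with 0.38, 0.14, −0.26 and −0.77. Of these 3, Dusp1 came closest to the 15 min change of Pfkfb3. The likeness rests on 5 arrays that all 4 genes share.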

How the data were processed

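Total RNA of 5 Fao samples, 1 per time of insulin, was labelled with Cy3 and hybridised to rat array design 014879, annotated on rn4, per the labels' protocols and the file headers. Intensity came from the authors' run of Feature Extraction 9.5.3.1 by Agilent, with spatial and multiplicative detrending on, per the file headers. The deposited flags for detection, outliers and controls (scored 0 or 1) were used as set. For 19777 probes the deposited series matrix gives log2 values, and the steps behind it are not given in the sources used here. Set against the scanner files over 19746 probes, each column matched the level centred on the median of the probe over the 5 arrays, with r of 0.999 to 1.00 across probes, which are not independent. Its column medians were 0, its direction was the same, and how its probes were chosen is unknown.

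Outlier spots were left out, spots of a probe were averaged and divided by the 75th percentile of the array (253.6 to 480.3), and log2 was taken. A change is given where the probe was well above background on both arrays. The brightest probe stood for its gene. Members were matched by the gene name in the files. Other genes were named by accession (10835 probes), current symbol (5196) or older symbol (3478) in the RefSeq table of GRCr8. Trends were fitted with limma 3.58.1 (R 4.3.3), and the fit was tested on simulated data. Tables were handled in pandas 2.3.3 and numpy 2.4.6 under Python 3.11.15, and plots drawn in matplotlib 3.10.9. Alternatives were normexp background, quantile scaling, a percentile over detected probes, control transcripts, other probe and filter rules, the series matrix, another baseline array and, added after the data were seen, a refitted normexp and centring on probes of like level. Genes outside the members were named where they passed 1.5-fold (up to 6 per list), and the 3 nearest courses were named for members spanning at least 1 log2 unit. Mlxipl and the genes below background were named after their values were seen. Some genes of the lists are not reported here by name. The members and lists were chosen with earlier results of these data known. The number of arrays and the brightness of each spot limit the precision.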

Additional observations from a re-analysis of the deposited data

How the results depend on the processing

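Of 8 genes, 1 was 1.5-fold different at 15 and 60 min and 0 at 30 and 45 min. With no filter on dim probes these counts were 2, 1, 1 and 2 in order of time, since Hk2 entered. With normexp on all spots 4 genes passed at 15 min, when 46.1% of all probes did, and with the refitted normexp 0. Against 15 min, 1 gene, Pfkfb3, passed at 30 min and at 45 min, both times against the same 15 min spot. The median change of the genes with normexp was −0.37, 0.11 and −0.16 at 15, 30 and 60 min, and 0.11 and −0.16 at 30 and 60 min after refitting. With the control transcripts it was −0.15, −0.20, −0.24 and −0.25 at the 4 times. The cause of the normexp medians was not tested. The number of probes with a trend in limma, 2 in the fit reported, was 0 without the 60 min array, with either normexp and with floored dim probes, 19 with the control transcripts and 29 without the 0 min array, where 1 member probe, Pfkfb3, passed. Of the single-gene changes against 0 min under an alternative, 92 were identical to the reported value because the setting could not alter them. Of the others, 195 lay within the technical spread of the reported value and 33 did not, and neither called change of Pfkfb3 reversed. Depth of signal limits Pfkfb3, Slc2a2 and Hk2 most. No paired analysis was possible because each time has 1 sample and the labels give no pairs.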

Other observations

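Values of other forms of the bifunctional enzyme and of hexokinase stand beside those of the members. These genes were picked after their values were seen, and no test was made. Pfkfb2, the form of heart and kidney, had a change of −0.05 at 60 min, beside −0.31 for Pfkfb1 and −1.04 for Pfkfb3. Hk1, a hexokinase of most tissues, had −0.43 at 60 min, and −0.44 by its other probe. At 30 min the probes of Hk1 had changes of 0.16 and −0.02. All of these values at 60 min come from the array on its own slide.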
